A study of Drosophila melanogaster with 8 samples.

Results

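The cytosolic ribosomal protein genes of Drosophila melanogaster were taken as every gene whose FlyBase symbol starts with RpL (large subunit) or RpS (small subunit), which leaves out the mitochondrial ribosomal proteins. This gave 92 of the 17471 genes in the expression table, 54 of the large subunit and 38 of the small, and 21 of the 92 carry the suffix -like, a or b of a gene copy. RNA came from larval fat body in 4 groups of 2 libraries. These were homozygous CPSF5H11/CPSF5H11 mutant larvae starved for 16 h, and OreR wild-type larvae, either fed or kept without food for 4 h or 16 h. A fed mutant was not analysed here, and the labels do not give the nature of the allele, the age of the larvae, or whether animals were pooled. They also do not say that the 2 libraries of a group came from separate animals, so a p-value here measures the spread between these libraries alone, which may be technical.

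Each ribosome is built from ribosomal RNA and about one copy of each ribosomal protein, and growing cells spend much of their transcription on these genes. In fly larvae, nutrients acting through the TOR kinase set the rate of ribosome making, and the fat body is the organ that senses amino acids for the whole animal. Assembly takes place largely in the nucleolus, where RNA polymerase I makes the rRNA precursor and assembly factors, some of them relatives of ribosomal proteins, hold the maturing subunits until they are exported.

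Values are TPM, the length-adjusted share of transcripts that the authors deposited, divided here by 1 factor per library and called scaled TPM. Log2 fold changes are differences of log2(scaled TPM + 1), which understates changes of low genes, each with the SE and adjusted p of limma over 8312 tested genes, and the threshold was an adjusted p of 0.05. The depth behind TPM is unknown. Nuclear ribosomal RNA took 4.58% and 5.41% of all TPM in mutant libraries, 5.19% and 6.79% in fed, 12.6% and 14% at 4 h, and 48.8% and 31.1% at 16 h in wild type. Cpsf5, the mutated gene, stood at 3.57 and 2.99 scaled TPM in the mutant and 5.02 and 4.16 in wild type at 16 h, which did not pass (log2 fold change -0.39, SE 0.24, adjusted p = 0.256). The fat body label was checked on 9 marker genes. The storage protein gene Lsp2 stood at 8.56 and 16.6 scaled TPM in the mutant, 2352 and 5653 in fed wild type, 13430 and 19470 at 4 h, and 23520 and 24490 at 16 h, while the lipid carrier gene apolpp stood between 1149 and 2315 in all 8. Relative to wild type at 16 h, 5 of the 9 markers fell and 2 rose in the mutant, where 12.1% of all tested genes fell and 21.4% rose. Salivary gland glue genes summed to 5.27 and 5.88 scaled TPM in the mutant and 46.1 and 5.34 in fed wild type, against 21470 and 23610 at 4 h and 12550 and 38110 at 16 h. Midgut markers summed to 57.4 and 369 scaled TPM in the mutant and 120 and 208 in fed. At 4 h they stood at 0.545 and 0.555, and at 16 h at 0.655 and 6.29. Muscle markers summed to 93.2 and 56.5 in the mutant and 174 and 117 in fed. At 4 h they stood at 26 and 7.68, and at 16 h at 26.4 and 35.3. Hemocyte markers summed to 102 and 19 in the mutant and 6.88 and 7.49 in fed. They stood at 31.9 and 19 at 4 h and 7.4 and 9.02 at 16 h. What other tissues add was not tested. Fewer cells of a type and less RNA per cell cannot be told apart in such samples.

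Most ribosomal protein genes were abundant RNAs. Outside the -like genes, 81 members averaged 10 or more scaled TPM over the 8 libraries, and the median of these 81 was 1170 and 1349 scaled TPM in the mutant, 840 and 885 in fed wild type, 698 and 877 at 4 h, and 613 and 702 at 16 h. Both mutant libraries were above all 6 wild-type libraries in this median, and the 4 h and fed values overlapped. The highest mean belonged to RpL41, the smallest protein of the large subunit, at 5839 and 8135 scaled TPM in the mutant, 6230 and 4797 in fed, 3454 and 3343 at 4 h, and 3681 and 5145 at 16 h. RpL39, which lines the exit tunnel of the nascent chain, RpL29, the stalk protein RpLP1 and RpS29 followed. At the other end stood RpS28a, RpL10Aa and RpS28-like, none of which exceeded 2.47 scaled TPM in any library. TPM is per length, but level still moved with length among these genes. Over the 81 members the mean log2 level had a Spearman rho of -0.46 with transcript length. Its median was 10.02 in the shortest 27 and 9.44 in the longest 27. RpL41 (320 nt), RpL39 (288 nt) and RpL29 (333 nt, weighted by TPM) are short, and genes this short are measured over few fragments. The part of length in their rank was not tested.

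**Figure D1:**
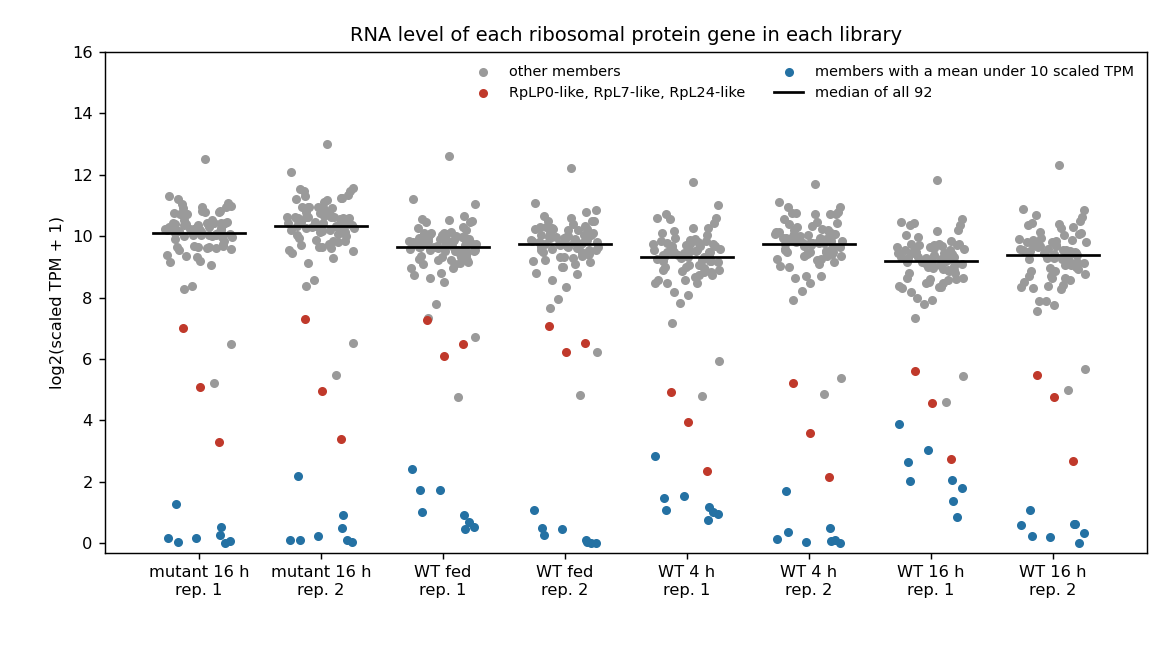
Level of each of the 92 ribosomal protein genes in each of the 8 libraries, as log2(scaled TPM + 1); each point is 1 gene, red points are RpLP0-like, RpL7-like and RpL24-like, blue points are the 8 genes with a mean under 10 scaled TPM, and bars are medians of all 92. Most genes lie in 1 band that is highest in the 2 mutant libraries, while RpLP0-like and RpL7-like stand highest in fed wild type and RpL24-like stands as high in the mutant as in fed and lower in the 4 starved wild-type libraries.

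As a share of the TPM of nuclear protein-coding genes, the 92 genes took 33.3% and 36.8% in the mutant, 27.8% and 25.9% in fed wild type, 17.6% and 17.1% at 4 h, and 16.9% and 17.5% at 16 h. The mutant was highest, fed wild type was between, and the 4 starved wild-type libraries were lowest, with no overlap between these 3 levels. This share depends on what else is in the library: the fat body and glue markers took 1.30% and 0.854% of the same total in the mutant, 6.91% and 12.4% in fed, 21.3% and 25.1% at 4 h, and 27.0% and 30.1% at 16 h. With those markers taken out of the total, a step chosen after the values were seen, the ribosomal protein share was 35.4% ± 2.39 in the mutant, 29.7% ± 0.22 in fed, 22.6% ± 0.32 at 4 h and 24.1% ± 1.41 at 16 h (SD, n = 2 each), in the same order of mutant, fed and starved. The 2 subunits moved together. The summed TPM of large subunit genes was 1.65 and 1.71 times that of small subunit genes in the mutant, 1.72 and 1.61 times in fed, 1.60 and 1.53 times at 4 h, and 1.58 and 1.59 times at 16 h.

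**Figure D2:**
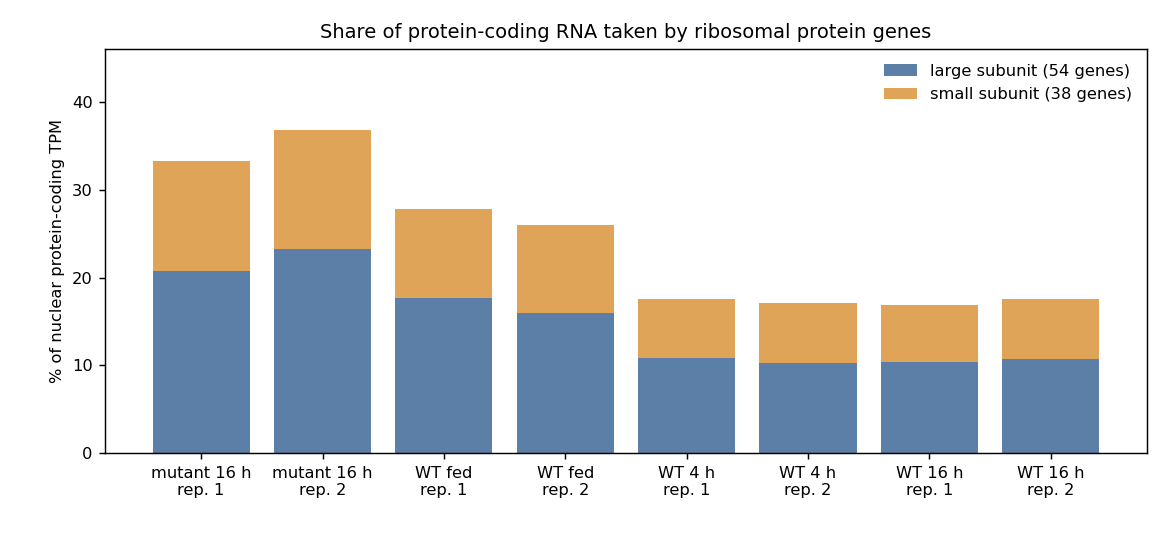
Share of nuclear protein-coding TPM (%) taken by the 54 large subunit genes (blue) and the 38 small subunit genes (orange) in each of the 8 libraries, stacked. The 2 mutant libraries reach 33.3% and 36.8%, the 2 fed libraries 27.8% and 25.9%, and all 4 libraries of starved wild type stay between 16.9% and 17.6%.

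Set against wild type starved as long, the mutant had more RNA of most ribosomal protein genes. Of the 87 members tested, 56 rose and none fell, where 21.4% of all tested genes rose and 12.1% fell (limma). At an unadjusted p under 0.05 were 75 members, and 3770 of all 8312 tested genes. The median log2 fold change of the members was 0.97, against 0.09 for all genes. Both mutant libraries were above both wild-type libraries for 84 of the 87 members, where 41.2% of all genes were, and below them for 1 member, RpL37-2, where 31.2% were. In TPM as deposited 84 members were above too, where 72.3% of all genes were. By subunit, 38 of 53 large subunit genes rose, with a median of 1.0, and 18 of 34 small subunit genes, with a median of 0.87. The count moved with the libraries used: it was 10 without either 16 h replicate 1 or mutant replicate 2, 19 without 16 h replicate 2, 21 without mutant replicate 1, 35 without either fed library, and 66 without either 4 h library. In the 2 cases with 10, they were 9 large subunit genes and 1 small subunit gene.

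The 10 largest rises in the mutant were all in large subunit genes. RpLP2, an acidic protein of the stalk that recruits elongation factors, stood at 1826 and 2401 scaled TPM in the mutant and 692 and 702 in wild type at 16 h (log2 fold change 1.59, SE 0.25, adjusted p = 0.00565). RpL5, which binds a small rRNA together with RpL11, stood at 1947 and 2537 in the mutant and 765 and 818 in wild type at 16 h (1.49, SE 0.24, adjusted p = 0.00606). RpL15 stood at 1993 and 2211 in the mutant and 776 and 845 in wild type at 16 h (1.37, SE 0.19, adjusted p = 0.0037). In each of these the groups were far apart and the mutant libraries were also above both fed libraries. RpL34b rose by 1.58 (583 and 806 against 243 and 216 scaled TPM; adjusted p = 0.00683), RpL24, which takes part in a bridge between the subunits, by 1.39 (adjusted p = 0.00859), RpL35A by 1.37 (adjusted p = 0.00846), RpL13 by 1.36 (adjusted p = 0.00821) and the zinc-binding RpL37A by 1.31 (adjusted p = 0.0172). RpL38, at 1219 and 1979 scaled TPM in the mutant and 509 and 497 in wild type at 16 h, had the highest estimate but a large error (SE 0.43, adjusted p = 0.0312), and its 2 fed libraries lay apart, at 961 and 512. RpL24-like completes the 10 and is described with the assembly factors. The calls of RpLP2, RpL34b, RpL5, RpL24, RpL24-like, RpL15, RpL35A, RpL13, and of RpL22 and RpS16 (chosen because they share this property) passed in all 16 settings tried. That of RpL38 was lost without any of the 4 libraries compared, and that of RpL37A without either 16 h library or mutant replicate 2.

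Members that did not pass included some of the most abundant. RpL41 and RpL29, and RpL28 and RpL40, which is made as a fusion to ubiquitin, had estimates of 0.66 (adjusted p = 0.109), 0.57 (adjusted p = 0.141), 0.42 (adjusted p = 0.19) and 0.52 (adjusted p = 0.137). RpL28 and RpL40 were chosen after their values were seen, as low estimates among the abundant genes. For RpL28, levels were 1016 and 1224 scaled TPM in the mutant and 773 and 901 in wild type at 16 h, and quantile normalization turned its estimate to -0.080. The lowest estimates belonged to genes of low level, RpL37-2 (-2.10, adjusted p = 0.245) and RpL22-like (-1.40, adjusted p = 0.314), whose 2 wild-type libraries differ widely.

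**Figure D3:**
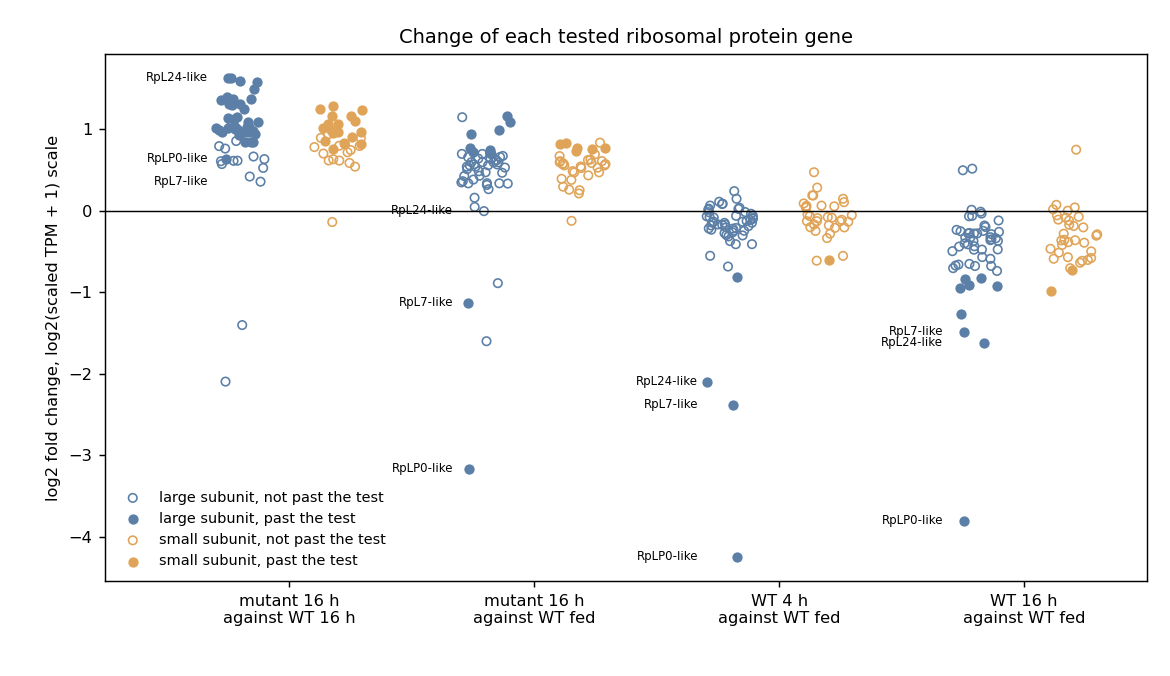
Log2 fold change of each of the 87 tested ribosomal protein genes in 4 comparisons, on the log2(scaled TPM + 1) scale; blue is the large subunit, orange the small subunit, and filled points passed at an adjusted p under 0.05 (limma). Both subunits lie above 0 in the mutant against wild type at 16 h, with medians of 1.0 and 0.87, and the named -like genes stand far below the other members in both starved wild-type groups.

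The mutant was also set against fed wild type, a comparison that crosses genotype and feeding and shares the mutant libraries with the one above. Here 14 of 87 members rose and 2 fell, where 23.0% of all tested genes rose and 22.4% fell, and the members' median was 0.57 against 0.07 for all genes. Although the share called was below that of all genes, both mutant libraries were above both fed libraries for 75 members, where 42.5% of all genes were, and below them for 4, where 37.2% were. In TPM as deposited they were above for 63 members, where 33.1% of all genes were. The largest rises were those of RpL5 (1947 and 2537 scaled TPM in the mutant, 981 and 1010 in fed; log2 fold change 1.16, SE 0.24, adjusted p = 0.00931) and RpL15 (1993 and 2211 in the mutant, 951 and 1031 in fed; 1.08, SE 0.19, adjusted p = 0.00523). RpL34b (0.99), RpL12 at the base of the stalk (0.94), RpS28b (0.83), RpS3 at the mRNA entry site (0.82), RpS29, RpLP1 and RpS12 (0.77 each) and the ubiquitin fusion gene RpS27A (0.76) followed. These rises depended on the scaling, since none of the 14 passed without scaling (0 rose and 2 fell) and quantile normalization gave 5 that rose and 3 that fell. They depended as much on single libraries, with 1 rise without fed replicate 1, fed replicate 2 or mutant replicate 2, 7 without 16 h replicate 2, 8 without mutant replicate 1 and 30 without either 4 h library. The falls, of RpLP0-like and RpL7-like, passed in all 16 settings.

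After 4 h of starvation in wild type few ribosomal protein genes passed the test, and most of those that fell were -like genes. Against fed wild type, 5 of 87 members fell and none rose, where 26.6% of all tested genes fell and 21.1% rose (limma). At an unadjusted p under 0.05 were 8 members, and 4528 of all 8312 tested genes. The median was -0.13, against -0.03 for all genes, and it was 0.09 without 4 h replicate 1. Both 4 h libraries were below both fed libraries for 16 members, where 39.7% of all genes were, and above them for 4, where 35.5% were, in scaled TPM. In TPM as deposited and as a share of coding TPM, both 4 h libraries were below both fed ones for 83 members, where 54.8% and 50.6% of all genes were. Besides the -like genes, the falls were those of RpL34a (59.9 and 40.8 scaled TPM at 4 h, 105 and 74.2 in fed; log2 fold change -0.82, SE 0.27, adjusted p = 0.0496) and of RpS3A, the one member on chromosome 4 (717 and 749 at 4 h, 1174 and 1060 in fed; -0.61, SE 0.19, adjusted p = 0.0374). Those calls were close to the threshold, and 3 falls were left without either fed, either 16 h or either mutant library. The most abundant gene, RpL41, stood at -0.69 (adjusted p = 0.0823) and did not pass.

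After 16 h, 11 of 87 members fell and none rose against the same fed libraries, where 27.7% of all tested genes fell and 21.6% rose (limma). At an unadjusted p under 0.05 were 21 members, and 4625 of all 8312 tested genes. The median was -0.37, against 0.01 for all genes, with -0.37 in the large subunit (9 of 53 fell) and -0.36 in the small (2 of 34 fell). Both 16 h libraries were below both fed libraries for 64 members, where 41.4% of all genes were, and above them for none, where 38.1% were, and in TPM as deposited they were below for 84, where 66.3% of all genes were. RpLP2 had the largest fall outside the -like genes, at 692 and 702 scaled TPM at 16 h and 1618 and 1753 in fed wild type (log2 fold change -1.27, SE 0.25, adjusted p = 0.0067). The 4 h libraries of RpLP2 stood at 1238 and 1692, overlapping fed. RpS2 (-0.98), RpL35A (-0.95), RpL34a (-0.92), RpL24 (-0.91), RpL10 (-0.84), which is among the last proteins to join the large subunit, RpL13 (-0.83) and RpS3A (-0.73) fell as well. Of these falls, those of RpLP2 and the 3 -like genes passed in all 16 settings, and each of the others was lost without at least 1 fed and 1 starved library. The count was 5 and 4 without fed replicate 1 and 2, 4 and 5 without 16 h replicate 1 and 2, and 25 and 24 without 4 h replicate 1 and 2.

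Between 16 h and 4 h in wild type, no member passed, as 0.0% of all tested genes rose and 0.0361% fell (limma). At an unadjusted p under 0.05 were 5 members, and 1335 of all 8312 tested genes. The median was -0.22 against 0.02 for all genes. Estimates that stood apart were those of RpLP2 at -1.05 and RpL7-like at 0.90 (adjusted p = 0.141).

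How far the ribosomal protein genes stand below fed levels in starved wild type depends on what each library is scaled to. In TPM as deposited, without any scaling, the members' median was -0.79 at 4 h and -1.51 at 16 h, but the median of all genes then stood at -0.53 and -0.82. Rescaling over coding genes gave -0.62 at 4 h and -0.64 at 16 h (all genes -0.37 and -0.19), and quantile normalization -0.27 and -0.54 (all genes 0.00 and -0.02). At 4 h the members stood from 0.10 to 0.27 below the median gene under these 4 scalings, and at 16 h from 0.38 to 0.69 below it. The gap at 4 h was not stable in other settings. With the filter at a mean of 10 scaled TPM the members stood 0.08 above the median gene, and without 4 h replicate 1 they stood 0.21 above it. At 16 h, with that filter, they stood 0.19 below it. With rescaling over coding genes, 55 of 87 members fell at 4 h, where 34.4% of all genes did, so the reading of the count against all genes turns with the scaling. In the mutant against wild type at 16 h, the members stood from 0.64 to 1.10 above the median gene, and 41 to 84 of them rose.

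**Figure D4:**
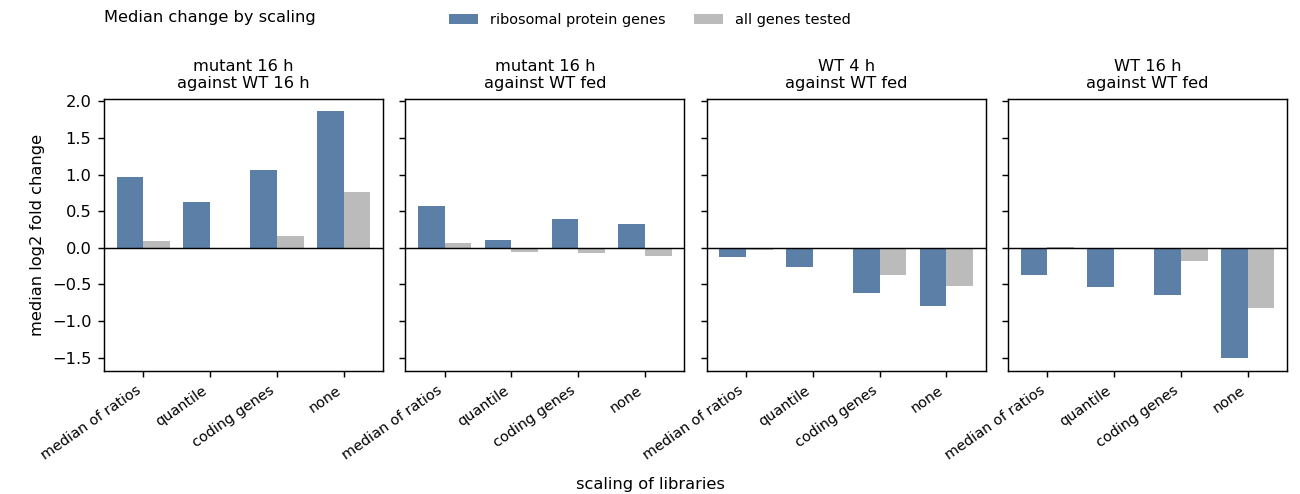
Median log2 fold change of the 87 tested ribosomal protein genes (blue bars) and of all tested genes (grey bars) under 4 ways to scale the libraries, in 4 comparisons. The blue bar is above the grey one in both mutant comparisons and below it in both comparisons of starved with fed wild type, whichever scaling is used.

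Relative levels within the set do not depend on a library's scaling. Each gene's TPM was set against the median ribosomal protein gene of the same library, and differences between groups are given on the log2 scale without a test. RpL5 stood 0.82 and 0.99 above the median member in the mutant, against 0.30 and 0.25 in fed, 0.32 and 0.27 at 4 h, and 0.39 and 0.28 at 16 h. RpL5 was thus higher in the mutant than in all 6 wild-type libraries, and RpL15 showed the same order, at 0.85 and 0.79 in the mutant and 0.02 to 0.42 in wild type. RpLP2 stood 0.73 and 0.91 above the median member in the mutant, 1.02 and 1.05 in fed, 0.95 and 0.98 at 4 h, and 0.25 and 0.06 at 16 h, so wild type at 16 h alone was low. RpS2 stood 0.54 and 0.79 below the median member in the mutant, near it in fed (-0.10 and 0.08), and 0.44 and 0.40 below it at 4 h and 0.56 and 0.65 below it at 16 h, so that the mutant lay with the starved wild type. RpL28 ran the other way to most, at -0.12 and -0.06 in the mutant and 0.41 and 0.42 in wild type at 16 h.

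RpLP0-like, RpL7-like and RpL24-like carry the names of ribosomal proteins, but their relatives in yeast and human (the human genes MRTO4, RPL7L1 and RSL24D1) are assembly factors that bind the precursor of the large subunit and are later exchanged for, or leave before, the ribosomal protein they resemble. They were the members that changed most with starvation. RpLP0-like (FBgn0033485; chromosome 2R, 10098518 to 10099590, minus strand, with annotated UTRs of 104 nt at the 5′ end and 73 nt at the 3′ end) stood at 8.86 and 9.48 scaled TPM in the mutant, 88.7 and 91.8 in fed, 4.11 and 3.5 at 4 h, and 5.70 and 5.39 at 16 h. The fed libraries were far above all others, and the mutant lay just above starved wild type. At 4 h it fell by 4.25 on the log2 scale (SE 0.14, adjusted p = 3.89e-05) and at 16 h it fell by 3.8 (adjusted p = 5.88e-05). The mutant rose over wild type at 16 h by 0.64 (SE 0.14, adjusted p = 0.0178), a call that was lost with rescaling over coding genes and without any of the 4 libraries compared, and against fed it fell by 3.17 (adjusted p = 0.000154).

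RpL7-like (FBgn0032404; on the plus strand of chromosome 2L, 12056326 to 12058251) had values of 33.3 and 30.0 scaled TPM in the mutant, 67.5 and 73.8 in fed, 14.4 and 11.1 at 4 h, and 22.7 and 26.4 at 16 h. Its fed libraries were highest and its 4 h libraries lowest, with no overlap between the groups. It fell by 2.39 at 4 h (SE 0.20, adjusted p = 0.000261) and by 1.49 at 16 h (adjusted p = 0.00145), and the mutant did not pass against wild type at 16 h (0.35, adjusted p = 0.207). RpL24-like (FBgn0037899; chromosome 3R, 11430740 to 11431582, minus strand) stood at 129 and 159 in the mutant, 153 and 135 in fed, 29.6 and 36.4 at 4 h, and 48.2 and 43.6 at 16 h. Here the mutant lay at the level of fed wild type, overlapping it, while all 4 starved wild-type libraries were lower. It fell by 2.10 at 4 h (SE 0.22, adjusted p = 0.000597) and by 1.63 at 16 h (adjusted p = 0.00149), and rose in the mutant over wild type at 16 h by 1.62 (SE 0.22, adjusted p = 0.00341). In the same libraries the ribosomal proteins they are named for changed less. RpLP0 fell short of the test at 4 h (-0.41, adjusted p = 0.142), as did RpL7 (-0.15, adjusted p = 0.654) and RpL24 (-0.41, adjusted p = 0.218). RpLP0-like made up 0.846% and 1.03% of the summed level of its pair in the mutant, 10.9% and 10.4% in fed, 0.764% and 0.573% at 4 h, and 1.16% and 0.999% at 16 h. For RpL24-like the share was 14.6% and 15.9% in the mutant, 21.9% and 18.4% in fed, 7.68% and 6.59% at 4 h, and 14.1% and 12.1% at 16 h.

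Most pairs of gene copies with suffixes a and b were dominated by 1 copy. The minor copy held less than 1% of the pair in all 8 libraries for RpL10Aa, RpS5b, RpS10a, RpS19b and RpS28a, and up to 1.56% for RpL37-2 beside RpL37-1 and 2.77% for RpL22-like beside RpL22. RpS15Ab held 2.76% and 2.70% of its pair in the mutant, 2.81% and 2.74% in fed, 3.46% and 3.12% at 4 h, and 3.725% and 3.95% at 16 h. The mutant overlapped fed, both were below 4 h, and 16 h was highest. RpL34a held 13.4% and 10.2% in the mutant, 22.3% and 18.5% in fed, 18.0% and 10.3% at 4 h, and 14.8% and 18.8% at 16 h, so that both mutant libraries were below both fed and both 16 h libraries and both 4 h libraries below both fed ones, while the other pairs of groups overlapped. RpS14a and RpS14b, which encode the same protein, differed little in their division between groups. RpS14b stood at 32.4% and 29.5% in the mutant, 26.2% and 28.5% in fed, 27.6% and 26.3% at 4 h, and 30.6% and 31.2% at 16 h. Both mutant and both 16 h libraries were above both fed and both 4 h libraries. How reads shared by such near-identical copies were divided is not stated by the sources at hand, so the division within the RpS14, RpS15A and other such pairs is uncertain. Of the 12 tested members with suffix a or b, 7 rose in the mutant over wild type at 16 h, 1 fell at 4 h and 1 at 16 h. Of all tested genes 21.4% rose in the mutant over wild type at 16 h, 26.6% fell at 4 h and 27.7% at 16 h.

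The 8 members with a mean under 10 scaled TPM include copies known from the fly germ line, such as RpL22-like and RpS5b, and they varied between replicates of a group. RpL37-2 stood at 0.137 and 0.0778 scaled TPM in the mutant, 4.32 and 1.12 in fed, 6.13 and 0.0932 at 4 h, and 13.7 and 0.52 at 16 h. RpL22-like stood at 0.134 and 0.188 in the mutant, 2.35 and 0.38 in fed, 1.91 and 0.0234 at 4 h, and 7.20 and 0.15 at 16 h. In both, replicate 1 was the higher library of each wild-type group and 16 h replicate 1 the highest of all. The numbers 1 and 2 follow the order of the samples and are not in the labels, so a shared number does not show a shared batch. Among all 8 of these members, fed replicate 1 was above fed replicate 2 in 8, 4 h replicate 1 above 4 h replicate 2 in 7 (all but RpS5b) and 16 h replicate 1 above 16 h replicate 2 in 8. Testis marker genes were split in the same way: the summed level of 11 such genes was 2.06 and 1.74 scaled TPM in the mutant, 13.1 and 1.17 in fed, 23.3 and 11.9 at 4 h, and 59.1 and 7.01 at 16 h, and each of the 11 was higher in replicate 1 of all 3 wild-type groups. The meiotic arrest gene aly was at 0 in both mutant libraries. The 11 germ line markers, of which 10 were found, summed to 3.20 and 2.96 scaled TPM in the mutant and 2.30 and 0.604 in fed. They summed to 2.295 and 3.93 at 4 h and 8.08 and 3.70 at 16 h. At 4 h replicate 2 was the higher, unlike the testis markers, and both mutant libraries were above both fed ones. The part of testis RNA in these low values was not tested. None of the 3 such members that entered the test passed in any comparison.

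**Figure D5:**
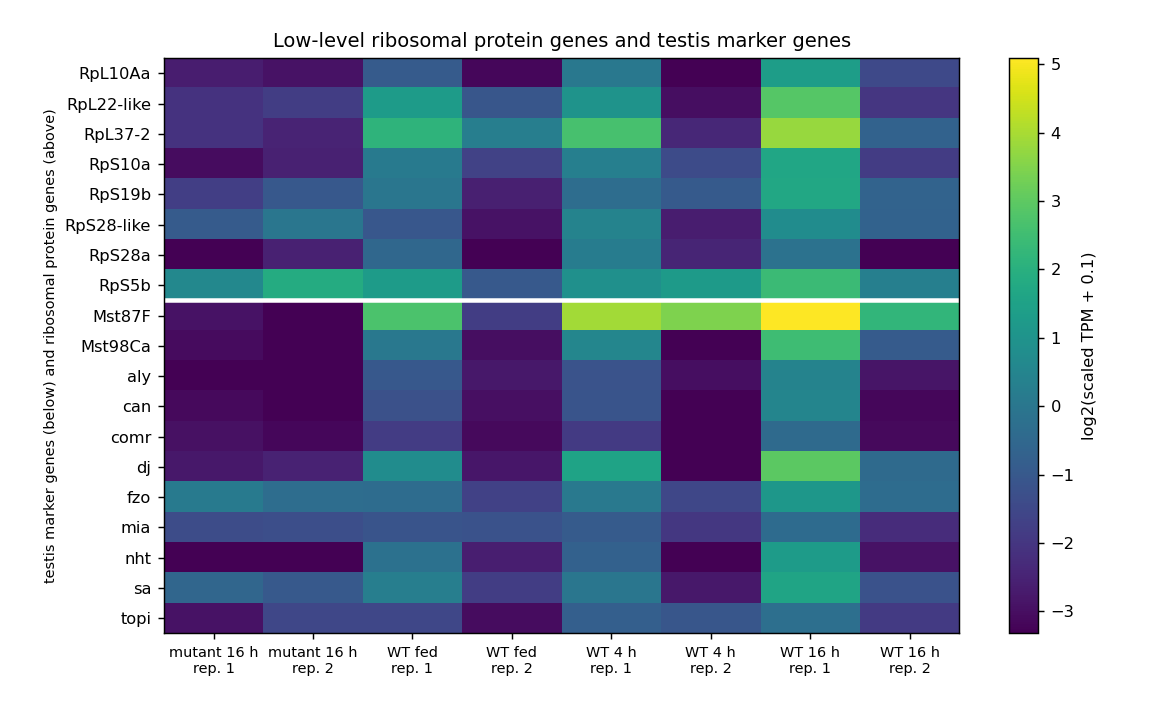
Levels of the 8 ribosomal protein genes with a mean under 10 scaled TPM (above the white line) and of 11 testis marker genes (below it) in each of the 8 libraries, as log2(scaled TPM + 0.1) on a colour scale from dark (low) to yellow (high). Replicate 1 of each wild-type group is brighter than replicate 2 in most rows, and 16 h replicate 1 is the brightest column.

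Genes that make and assist ribosomes were described from lists of names chosen with earlier results of these data known. The assembly factors moved most. Of 16 tested, 16 fell at 4 h and 15 at 16 h against fed, with medians of -3.94 and -3.48 set beside -0.03 and 0.01 for all genes, and 14 rose in the mutant over wild type at 16 h (median 0.89). Among all tested genes 26.6% fell at 4 h, 27.7% fell at 16 h and 21.4% rose in the mutant over wild type at 16 h. The box C/D protein gene nop5 stood at 14.3 and 16.5 scaled TPM in the mutant, 126 and 130 in fed, 3.91 and 2.26 at 4 h, and 5.16 and 5.39 at 16 h. The rRNA methyltransferase gene Fib stood at 7.43 and 9.31 in the mutant, 73.5 and 82.8 in fed, 2.27 and 1.24 at 4 h, and 2.86 and 1.83 at 16 h. Both had the order of RpLP0-like, with fed wild type far above the rest and the mutant next. Their log2 rise in the mutant over wild type at 16 h was larger than that of RpLP0-like (limma, nop5 1.38, adjusted p = 0.00626, and Fib 1.5, adjusted p = 0.00732). The count of 14 assembly factors was 9 without 16 h replicate 1 and 8 without 16 h replicate 2 or mutant replicate 2. Against fed, 15 of the 16 fell in the mutant too, and Non1 rose (1.31), where 22.4% of all tested genes fell and 23.0% rose. Of 5 tested RNA polymerase I genes, 4 fell at 4 h, among them the gene of the largest subunit, Polr1A, which fell by 4.12 (adjusted p = 3.89e-05), and 3 rose in the mutant over wild type at 16 h, of which 1 was left without 16 h replicate 2 or either mutant library.

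Mitochondrial ribosomal proteins, which are nuclear-encoded but serve another ribosome, had lower medians against fed than the cytosolic ones. Of 73 tested, 71 fell at 4 h and 71 at 16 h against fed, and their medians were -1.83 and -1.96. Among all tested genes 26.6% and 27.7% fell. In the mutant 46 rose over wild type at 16 h (median 0.79) and 62 fell against fed (median -1.08), where 21.4% and 22.4% of all tested genes did. The count of 46 was 24 without 16 h replicate 2 or mutant replicate 1, and that of 62 was 40 without fed replicate 1. The small subunit gene mRpS11 stood at 15.54 and 12.4 scaled TPM in the mutant, 30.9 and 25.8 in fed, 3.42 and 1.70 at 4 h, and 3.87 and 2.37 at 16 h. So the mutant lay between fed and starved wild type for the mitochondrial gene, while most abundant cytosolic members were highest in the mutant.

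Of 12 ribosome-bound proteins and elongation factors, 4 fell at 4 h, where 26.6% of all tested genes fell. In the mutant over wild type at 16 h 6 rose, where 21.4% of all tested genes rose. Fewer of these rises were left without either 16 h library or mutant replicate 1. The nascent chain complex gene bic stood at 547 and 557 scaled TPM in the mutant, 387 and 395 in fed, 112 and 96.5 at 4 h, and 102 and 125 at 16 h (mutant over wild type at 16 h, log2 fold change 2.28, SE 0.21, adjusted p = 0.00125). Its partner Nacalpha rose by 1.37 in the same comparison (adjusted p = 0.00365). The small subunit protein gene sta, whose symbol the choice of members leaves out, stood at 1244 and 1101 in the mutant, 984 and 1203 in fed, 543 and 718 at 4 h, and 542 and 562 at 16 h (mutant over wild type at 16 h, 1.08, SE 0.23, adjusted p = 0.0165). That call was lost with quantile normalization and without any of the 4 libraries compared.

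Among 10 genes of TOR signalling and translation control, 3 rose and 2 fell at 4 h, where 21.1% of all tested genes rose and 26.6% fell. Fewer of the falls were left without either fed library. Thor, the translation repressor that TOR holds inactive, stood at 33.9 and 80.2 scaled TPM in the mutant, 3.15 and 2.44 in fed, 104 and 195 at 4 h, and 174 and 228 at 16 h. It rose at 4 h by 5.25 (SE 0.48, adjusted p = 0.000378) and fell in the mutant against wild type at 16 h by 1.91 (SE 0.48, adjusted p = 0.0268), and the call in the mutant was lost without scaling, without a filter, and without either fed library, either 16 h library or mutant replicate 1. The gene larp, whose protein binds mRNAs of the translation machinery, stood at 16.0 and 16.7 in the mutant, 24.0 and 22.3 in fed, 6.63 and 5.62 at 4 h, and 7.48 and 6.87 at 16 h, and rose in the mutant over wild type at 16 h by 1.08 (adjusted p = 0.00343). The transcription factor genes REPTOR-BP and REPTOR rose at 4 h by 3.69 and 1.15 (adjusted p = 3.89e-05 and 0.00312), and the call of REPTOR was lost without scaling. Of 9 regulators of ribosomal protein gene transcription and of the Minute response, Myc, at 4 h, fell by 2.5 on the log2 scale (adjusted p = 0.000657), with 8.49 and 9.63 scaled TPM in the mutant, 18.4 and 18.0 in fed, 3.46 and 1.57 at 4 h, and 6.13 and 5.16 at 16 h. At 4 h Dref also fell, a call lost without fed replicate 2 or 4 h replicate 2, and Mnt rose, a call lost without scaling. In the mutant against wild type at 16 h 4 of the 9 fell (Mnt, Trf2, Dref and foxo), where 12.1% of all tested genes fell. None of those 4 falls passed without scaling, where Dref turned to 0.051, or with rescaling over coding genes, and the count was 0 without either mutant library, 1 without 16 h replicate 1 and 2 without 16 h replicate 2.

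Few ribosomal protein genes could be tested for a change in isoform use. Of the 92 genes, 24 have 1 isoform in the transcript table, and in 49 of the other 68 the leading isoform averaged over 95% of the gene's TPM. The test covered 36 isoforms of 19 members. At 4 h, 4 passed, where 17.8% of all 5289 isoforms tested did, and at 16 h 4 passed, where 19.3% did. RpL3-RA made up 97.2% and 97.6% of RpL3 in the mutant, 79.4% and 84.6% in fed, 96.8% and 98.5% at 4 h, and 97.3% and 97.5% at 16 h. Its share was lower in both fed libraries than in all 6 starved ones, and its log2 ratio to the gene's other isoforms rose at 4 h by 3.16 (SE 0.41, adjusted p = 0.00596), at 16 h by 2.90 (adjusted p = 0.00669) and in the mutant against fed by 3.01 (adjusted p = 0.00598), in every setting tried. RpL3-RA was above 95% in all 6 starved libraries, and the test kept only isoforms with a mean share of 5% to 95%. It thus entered the test through the fed libraries alone, which favours a call against fed, so these p-values are no independent support. The other calls at 4 h and 16 h were RpL15-RA, RpL15-RF and RpL17-RB, which were lost with a pseudocount of 0.1. RpL15-RF, which starts with a 5′ UTR of 125 nt against 46 nt in RpL15-RA, held 8.42% and 8.13% of RpL15 in the mutant, 12.3% and 11.2% in fed, 5.69% and 3.86% at 4 h, and 4.84% and 6.18% at 16 h.

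In the mutant against wild type at 16 h, 2 member isoforms passed, where 19.6% of all tested did. RpS15Aa-RD, with a 3′ UTR of 348 nt, held 5.96% and 5.13% of RpS15Aa in the mutant, 20.8% and 13.4% in fed, 16.9% and 9.55% at 4 h, and 14.6% and 15.2% at 16 h, and its log2 ratio fell by 1.59 (SE 0.40, adjusted p = 0.0415). RpS21-RA held 62.5% and 58.3% of RpS21 in the mutant and 48.4% and 43.8% in wild type at 16 h (0.83, SE 0.22, adjusted p = 0.0458). Both calls were lost with a pseudocount of 0.1 and without any of the 4 libraries compared. In the mutant against fed, RpL3-RA and RpS15Aa-RD passed, where 20.1% of all tested did, and between 16 h and 4 h none did, as with 0.0% of all tested isoforms. The shares are estimates from short reads by a tool that the sources used here do not name.

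The annotated genes lie on all large chromosome arms, 19 on 2L, 21 on 2R, 14 on 3L, 23 on 3R, 14 on X and 1 on chromosome 4, and the median transcript, weighted by TPM, was 644 nt long. Length moved with the differences between replicates, with a sign and strength that varied by group. Over the 81 abundant members the log2 difference of mutant replicate 1 minus replicate 2 had a Spearman rho of 0.66 with transcript length. Its medians were -0.14 in the longest 27 and -0.39 in the shortest 27. The mutant had the largest rho of the 4 groups, with -0.34 in fed, -0.23 at 4 h and 0.39 at 16 h. For 16 h against fed rho was -0.38 (medians -0.57 in the longest and -0.28 in the shortest), and for the mutant against wild type at 16 h it was 0.31 (1.0 in the longest and 0.81 in the shortest). These points share their libraries, so the correlations are descriptions, and the part of fragment length or RNA quality in them was not tested.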

How the data were processed

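RNA of larval fat body was sequenced in 8 samples, grouped by the genotype and starvation labels. Per the labels' protocols, RNA was taken up in Trizol and made into stranded total RNA libraries after removal of ribosomal RNA. STAR 2.5.3 and build BDGP6 were used, per the submitters' processing notes; the tool that computed TPM is not given in the sources used here. Deposited by the authors were TPM per gene and per transcript, 1 column per sample. TPM keeps no read depth, so the precision rests on the spread between 2 libraries a group, and an exact permutation test of 2 against 2 cannot give a two-sided p below 0.333.

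Names came from a newer annotation of BDGP6: 17249 identifiers matched directly, 132 through values equal to the isoform sum of 1 current gene (relative tolerance 0.0001), and 90 stayed unmatched. Of the 92 members 87 matched directly and 5 by isoform sums. TPM was divided by median-of-ratios factors over 5393 genes at 1 or more TPM in all libraries (0.542 in 16 h replicate 1 to 1.53 in fed replicate 1), giving scaled TPM. The test covered the 8312 genes (87 members) averaging at least 1 scaled TPM and used limma 3.58.1 (R 4.3.3). The response was log2(scaled TPM + 1), fitted over all 8 libraries with a mean for each group, trended moderated variances, two-sided p-values and adjustment by Benjamini and Hochberg's method across the genes tested; 4 residual degrees of freedom remain, to which moderation added a median of 2.16. Isoform use was tested likewise on log2((isoform TPM + 1)/(TPM of the other isoforms + 1)), keeping those whose share averaged 5% to 95% where the gene averaged at least 5 TPM (5289 isoforms of 1995 genes). The code was tested on simulated data.

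Alternatives were other scalings, pseudocounts and filters, variances without a trend, and leaving out each library. Members, gene lists and marker lists were chosen with earlier results of these data known. Genes named are the copies with a suffix and their partners, up to 10 largest rises and falls of a comparison that passed with groups that did not overlap, the 5 highest and 3 lowest by mean level, and up to 4 of each other list; others are said to be chosen after their values were seen.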

Additional observations from a re-analysis of the deposited data

How the results depend on the processing

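Counts of ribosomal protein genes past the test depended on the scaling and on single libraries, while the direction of each median kept its sign in the alternatives below except at 4 h without 4 h replicate 1. Without scaling, 12 members fell at 4 h, 84 fell at 16 h and 0 rose in the mutant against fed, and the medians were -0.79, -1.51 and 0.33, with 1.87 in the mutant against wild type at 16 h and -0.70 for 16 h against 4 h. Rescaling over coding genes gave 55 falls at 4 h, 55 at 16 h, and medians of -0.62 and -0.64, with 0.39 in the mutant against fed. Quantile normalization gave 10 falls at 4 h, 40 at 16 h and 5 rises in the mutant against fed, with medians of -0.54 at 16 h, 0.62 in the mutant against wild type at 16 h and 0.11 in the mutant against fed. Without a filter, 35 members rose in the mutant over wild type at 16 h, 4 rose in the mutant against fed and 3 fell at 4 h. Without a variance trend, 17 fell at 16 h and 25 rose in the mutant against fed. With a pseudocount of 0.1, isoforms past the test numbered 1 at 4 h, 1 at 16 h, 0 in the mutant against wild type at 16 h and 1 in the mutant against fed.

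Leaving out 1 library gave 3 to 5 falls at 4 h (median -0.33 to 0.09), 4 to 25 at 16 h (-0.48 to -0.28), 10 to 66 rises in the mutant over wild type at 16 h (0.84 to 1.06), and 1 to 30 rises with 2 falls in the mutant against fed (0.42 to 0.67), and the median of 16 h against 4 h ran from -0.46 to -0.06. Isoforms past the test then numbered 1 to 4 at 4 h, 1 to 3 at 16 h, 0 to 1 in the mutant against wild type at 16 h and 1 to 3 in the mutant against fed. In the mutant against wild type at 16 h, RpL28 turned to -0.080 under quantile normalization, and eIF4E1 and Dref turned to 0.29 and 0.051 without scaling. The scalings differ in which genes they hold level; the cause of the other changes was not tested. No paired analysis was possible because the labels carry no replicate numbers, and the numbers 1 and 2 used here follow the order of the samples. With 2 libraries a group and unknown depth, low values rest on few or no measured replicates, which limits the genes under 10 scaled TPM most.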
